A study of Mus musculus with 34 samples.

Results

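The genes described here are *Fbxo32* and 8 genes of the insulin and FoxO pathway: *Insr*, *Igf1r*, *Irs1*, *Irs2*, *Pik3ip1*, *Foxo1*, *Foxo3* and *Foxo4*. They were taken by gene symbol from a table of 54532 genes measured by bulk RNA-seq in the mouse dorsal hippocampus. All 9 were in the table, and all 9 were among the 22018 genes with enough counts to be tested. *Fbxo32* was selected because its count was lower after training in this same comparison, and the others were chosen by name with earlier results of these data known. The differences of the 9 genes between the groups are therefore given as a description, without p-values.

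Gene expression was measured in the dorsal hippocampus of adult male C57BL/6J mice, 2 to 3 months of age, after spatial object recognition (SOR) training, in which a mouse explores objects placed at fixed locations of an open field. The 4 SOR mice were habituated to the arena, explored it in 3 sessions with objects, and were euthanized 1 h after training. The 4 homecage mice were the controls without training. The methods describe mice that were housed individually and handled before training, and no transgene, virus or drug is given for the bulk samples of either group. Each mouse gave 1 library of whole dorsal hippocampus, so fewer cells of a type and less RNA per cell cannot be told apart. Total counts per library lay between 51406011 and 81525977. The libraries came from a stranded kit that removes ribosomal RNA from total RNA, although the molecule given in the labels is polyA RNA. Markers of CA1, CA3 and dentate granule neurons were detected in all libraries, with summed levels of 257 to 293, 411 to 495 and 333 to 398 CPM, the counts scaled to library size.

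Insulin and the insulin-like growth factors bind the receptors INSR and IGF1R, which phosphorylate the adaptors IRS1 and IRS2. The adaptors recruit PI3-kinase, PI3-kinase activates AKT, and AKT phosphorylates the FoxO transcription factors and keeps them out of the nucleus. When this relay is weak, FoxO factors enter the nucleus and activate genes such as *Irs2*, *Insr* and *Fbxo32*. *Fbxo32* encodes atrogin-1, also called MAFbx, the F-box subunit of an SCF ubiquitin ligase that is best known from muscle atrophy. In the hippocampus, insulin and insulin-like growth factor receptors are present on neurons and glia and take part in synaptic plasticity.

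The promoters of *Irs1* and *Irs2* are shown because *Irs2* passed the threshold between the groups and *Irs1* did not, and because both hold the same pair of motifs. The sequences are the 250 bases before the transcription start in RefSeq (GRCm38.p6), written in the direction of the gene. Both genes lie on the minus strand, and the windows are chr1:82291440-82291689 for *Irs1* and chr8:11008930-11009179 for *Irs2*. The RefSeq starts differ from the gene starts in the GENCODE M21 annotation, whose coordinates are given below. Those are at 82291416 for *Irs1* and 11008458 for *Irs2*. Distances in this paragraph are counted from the RefSeq starts. Capitals mark the E-box CACGTG, and TTGTTTTG, which is the insulin response motif CAAAACAA read on the other strand.
Irs1: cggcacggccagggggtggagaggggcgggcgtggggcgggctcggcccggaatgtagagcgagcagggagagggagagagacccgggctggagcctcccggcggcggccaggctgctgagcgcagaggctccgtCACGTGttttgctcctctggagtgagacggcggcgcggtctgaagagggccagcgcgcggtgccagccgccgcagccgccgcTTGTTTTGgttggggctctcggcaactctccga
Irs2: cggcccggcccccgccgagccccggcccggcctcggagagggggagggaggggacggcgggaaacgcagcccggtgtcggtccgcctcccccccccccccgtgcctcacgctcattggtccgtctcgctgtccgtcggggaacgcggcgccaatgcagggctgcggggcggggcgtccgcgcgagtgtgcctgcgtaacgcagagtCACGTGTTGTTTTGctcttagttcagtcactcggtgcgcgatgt
In *Irs1* the E-box lies 115 to 110 bases before the start and the insulin response motif 33 to 26 bases before it. The *Irs2* motifs stand directly beside each other, at 44 to 39 and 38 to 31 bases before the start, so that the capitals form 1 run. Of 32851 promoter windows of this length, searched on both strands, 6.02% held the E-box and 2.21% held the insulin response motif. Both motifs were found in 33 windows (0.1%). They were directly adjacent in the order seen in *Irs2*, on either strand, in 2 (0.00609%). Other arrangements were not counted, and since this order is the one *Irs2* holds, the count is a description. A FoxO motif, GTAAACA, with TGTTTAC on the other strand, was found in 3.17% of all windows. It was found in 0 of the 6 windows matched to these genes, those of *Irs1*, *Irs2*, *Foxo1*, *Foxo3*, *Igf1r* and *Pik3ip1*. This count covers these exact letters and no other form of a FoxO site. These matches describe letters in the windows and no binding was measured. All windows follow RefSeq starts, and that of *Pik3ip1* (chr11:3330481-3330730) lay inside its GENCODE gene, which starts at 3330401.

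Compared per length, the mean levels of the 9 genes in homecage mice lay between 1.46 and 7.78 CPM per kilobase. Levels were computed as CPM per kilobase of merged exon of the GENCODE M21 annotation. The mean was highest for *Irs2*, at 7.78 ± 0.198 (SD, n = 4). *Foxo3* followed at 7.0 ± 0.218 and *Pik3ip1*, which encodes an inhibitor of PI3-kinase, at 5.71 ± 0.165. *Fbxo32* had 4.55 ± 0.205, *Insr* 4.12 ± 0.285 and *Igf1r* 3.87 ± 0.0312 CPM per kilobase. The lowest levels were those of *Foxo4* (3.45 ± 0.205), *Irs1* (3.35 ± 0.107) and *Foxo1* (1.46 ± 0.0869). The ranges over mice overlapped between *Fbxo32* and *Insr*, between *Insr* and *Igf1r*, and between *Foxo4* and *Irs1*, so that the order of these neighbours was within their spread. In SOR mice *Irs2* was again highest, at 9.66 ± 0.506, while *Fbxo32*, at 3.13 ± 0.253, took the eighth place, above *Foxo1* alone. The SOR range of *Fbxo32*, 2.97 to 3.51, overlapped those of *Foxo4* (3.29 to 3.38) and *Irs1* (3.01 to 3.59). The order of these genes in SOR mice was thus within their spread. With the length of the longest transcript in place of merged exons, *Pik3ip1* came first and *Fbxo32* moved behind *Insr* and *Igf1r*.

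**Figure D1:**
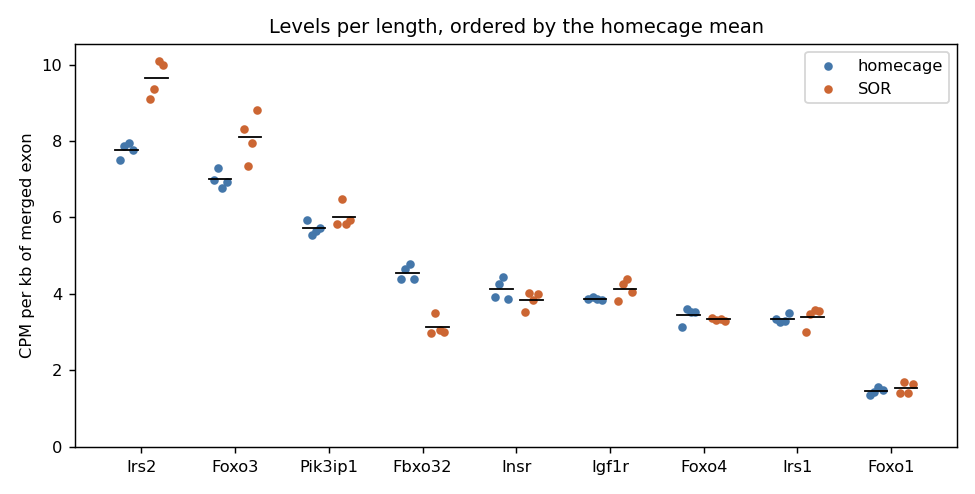
Levels of the 9 genes in CPM per kilobase of merged exon (vertical axis), with homecage mice in blue and SOR mice in orange, 1 point per mouse and a line at each mean. Genes are ordered by the homecage mean, from *Irs2* at 7.78 to *Foxo1* at 1.46, and *Fbxo32* is the gene whose SOR points lie below its homecage points.

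*Fbxo32* was lower after SOR training and *Irs2* was higher, while the other 7 genes did not pass the threshold, an adjusted p under 0.05 in edgeR's quasi-likelihood test, adjusted by the Benjamini-Hochberg method across every tested gene. Across all genes, 0.309% passed in either direction (68 of 22018), 0.273% as higher (60) and 0.0363% as lower (8). Of the 9 genes, 6 were higher and 3 lower in the SOR mean. The median log2 fold change was 0.08 for them and -0.02 for all genes. The groups did not overlap for *Fbxo32*, *Irs2* and *Foxo3*, and they did not overlap for 6.94% of all genes (1528). With a fold change above 1.4 required as well, *Fbxo32* alone of the 9 passed, and 0.173% of all genes did (38). Since the genes were chosen with this contrast known, passing the threshold is given here and below as a description of the values and not as a test, and nothing is read from these counts.

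**Figure D2:**
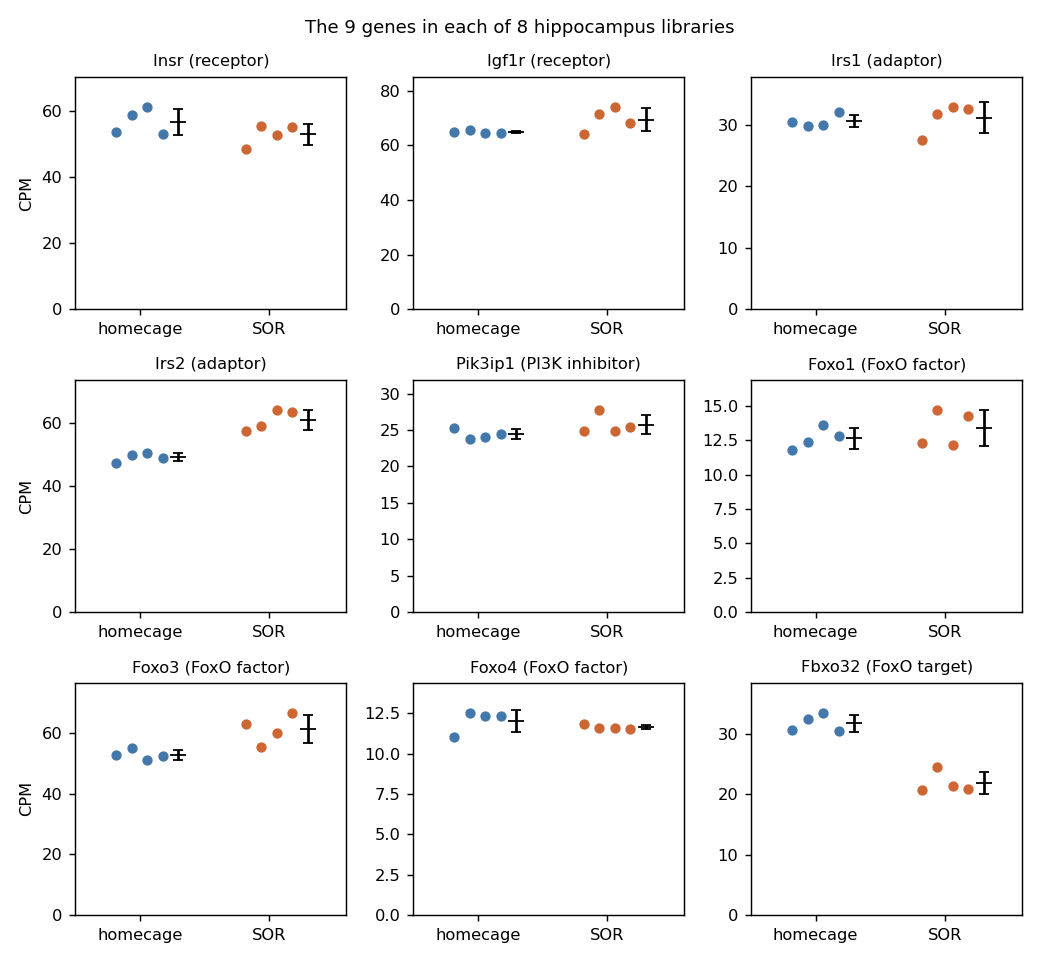
CPM of each gene (vertical axes, starting at 0) in the 4 homecage libraries (blue) and the 4 SOR libraries (orange), with mean and SD in black. The SOR points lie below all homecage points for *Fbxo32* and above them for *Irs2* and *Foxo3*.

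At the start of the relay, neither receptor passed the threshold. *Insr* (chr8:3122061-3279617, GRCm38, minus strand), the insulin receptor, had 53.7, 58.7, 61.1 and 53.0 CPM in homecage mice and 48.4, 55.4, 52.6 and 55.2 CPM in SOR mice. The groups overlapped, with a log2 fold change of -0.10 (SE 0.061). *Igf1r* (chr7:67952827-68233668, plus strand), the receptor of insulin-like growth factor 1, had 64.9, 65.6, 64.7 and 64.4 CPM in the homecage group and 64.1, 71.5, 73.9 and 68.2 CPM in the SOR group. The homecage values were close together, with a coefficient of variation of 0.806%, and 3 of 4 SOR values lay above all of them. The log2 fold change of *Igf1r* was 0.10 (SE 0.047).

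Of the adaptors, *Irs2* passed the threshold and *Irs1* did not, and the difference between these genes was not tested. *Irs1* (chr1:82233101-82291416, minus strand) had 30.5, 29.8, 30.0 and 32.0 CPM in homecage mice and 27.5, 31.8, 32.8 and 32.5 CPM in SOR mice. The first SOR mouse was the lowest of all 8 while the third and the fourth lay above every homecage mouse, which gave a log2 fold change of 0.03 (SE 0.0637). *Irs2* (chr8:10984681-11008458, minus strand), which carries the adjacent motifs shown above, had 47.5, 49.8, 50.4 and 49.0 CPM in the homecage group and 57.6, 59.2, 64.1 and 63.5 CPM in the SOR group. Every SOR mouse lay above every homecage mouse, and the mean went from 49.2 ± 1.25 to 61.1 ± 3.2 CPM (SD, n = 4 each), which is 24.2% higher. The log2 fold change of *Irs2* was 0.31 (SE 0.0466), and it lay between 0.29 and 0.34 with any 1 mouse left out. It passed the threshold with all 8 mice and without SOR replicate 1, but not without any 1 of homecage replicates 1, 2, 3 and 4 or SOR replicates 2, 3 and 4.

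*Pik3ip1* (chr11:3330401-3342971, plus strand), the PI3-kinase inhibitor, had 25.3, 23.7, 24.1 and 24.5 CPM in homecage mice and 24.9, 27.7, 24.9 and 25.4 CPM in SOR mice. The second SOR mouse was the highest of all 8, the groups overlapped, and the log2 fold change was 0.08 (SE 0.0559).

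Among the FoxO factors, *Foxo3* had the largest difference between the group means. *Foxo1* (chr3:52268336-52353221, plus strand) had 11.8, 12.4, 13.6 and 12.8 CPM in the homecage group and 12.3, 14.7, 12.2 and 14.3 CPM in the SOR group. The SOR mice lay on both sides of the homecage mean, with a log2 fold change of 0.08 (SE 0.0864). *Foxo3* (chr10:42181841-42276755, minus strand) had 52.9, 55.3, 51.3 and 52.6 CPM in homecage mice and 63.0, 55.6, 60.2 and 66.7 CPM in SOR mice. The groups did not overlap, but the lowest SOR mouse was only just above the highest homecage mouse. Its log2 fold change was 0.21 (SE 0.0561), which did not pass the threshold. *Foxo4* (chrX:101254528-101260873, plus strand) had 11.0, 12.5, 12.3 and 12.3 CPM in the homecage group and 11.8, 11.6, 11.6 and 11.5 CPM in the SOR group. The SOR values lay inside the homecage range, but only through homecage replicate 1, at 11.0 CPM, and below the other homecage mice. The log2 fold change was -0.05 (SE 0.0706), and -0.09 without that replicate.

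*Fbxo32* (ENSMUSG00000022358, chr15:58175879-58214932, minus strand) had 30.6, 32.4, 33.4 and 30.5 CPM in homecage mice and 20.7, 24.5, 21.4 and 20.9 CPM in SOR mice. All SOR mice were below all homecage mice, and the second SOR mouse was the nearest to them. The mean went from 31.7 ± 1.43 to 21.9 ± 1.76 CPM (SD, n = 4 each), which is a change of -31.1% and a log2 fold change of -0.54 (SE 0.0665). With 1 mouse left out the log2 fold change lay between -0.60 and -0.51, which gives no independent support, because the gene was selected on these mice. Its counts lay between 1064 and 2433 per library. Genes on the opposite strand share exon bases with *Fbxo32* (*Gm15943*, 0.126 to 0.349 CPM), *Irs2* (*9530052E02Rik*, 0.165 to 0.406 CPM), *Pik3ip1* (*Gm12592*, 1.6 to 2.45 CPM) and *Irs1* (*Gm9747*, 6.42 to 9.77 CPM). None of these 4 passed the threshold. The library kit was stranded, but the strand setting of the counting is not stated. Whether reads of these genes and their antisense partners were kept apart is therefore not known, which touches *Irs1* most.

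**Figure D3:**
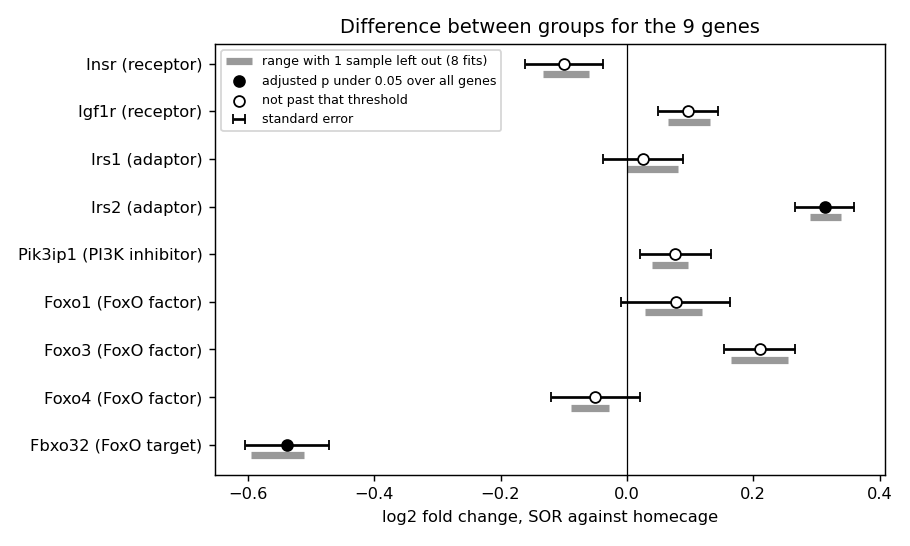
Log2 fold change of SOR against homecage for the 9 genes (horizontal axis), with standard errors in black and, in grey, the range over the 8 fits that each leave out 1 mouse. *Fbxo32*, at -0.54, and *Irs2*, at 0.31, have filled points, which mark an adjusted p under 0.05 over all genes tested.

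The means of all 9 markers of mature oligodendrocytes, the myelinating glia, were lower in the SOR group. Their median log2 fold change was -0.19, and their summed level was 5535 to 6029 CPM in the controls and 4525 to 5921 CPM after training, so the sums of the groups overlapped. None of the 9 passed the threshold, and *Opalin* was the one without overlap between the groups. In the paper's own bulk fit, which accounted for latent variation, *Opalin* was counted as lower. *Enpp6*, a gene of newly forming oligodendrocytes placed on the precursor list, fell from 14.4 ± 1.0 to 9.01 ± 0.982 CPM (adjusted p = 0.0142, edgeR). The other 4 genes of that list did not pass, and of the 5, 3 were lower and 2 higher, with *Gpr17* at 46.7 ± 3.71 and 52.1 ± 1.63 CPM. The sum of the list was 142 to 147 CPM in the controls and 135 to 145 CPM after training. Of 6 microglial markers, 4 were lower, with sums of 175 to 195 and 159 to 184 CPM. The markers of inhibitory neurons and of dentate granule neurons also had 4 of 6 lower, and those of astrocytes, endothelial cells and CA3 neurons 3 of 6. Mural cell markers had 2 of 5 lower. The markers of CA1 neurons, meningeal fibroblasts and red blood cells had 0 of 5 lower, and those of choroid plexus 0 of 6. Of all genes tested, 12368 of 22018 were lower in this scaling. No marker on any list was at 0 in all libraries, and the part of any of these cell types in the *Fbxo32* difference was not tested.

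The genes whose pattern over the 8 mice was most like that of *Fbxo32* were *Ntf3*, *Ndufs1*, *Kcns2*, *Cdc42ep2* and *Tubgcp5*. Likeness was measured among 16314 genes as the mean absolute difference of log2 CPM standardized over the 8 mice, which was 0.0928 for *Ntf3* and 0.164 for *Tubgcp5*. *Ntf3*, which encodes neurotrophin-3, had 8.66, 8.65, 9.05 and 8.81 CPM in homecage mice and 6.0, 7.0, 6.16 and 6.17 CPM in SOR mice. As with *Fbxo32*, the second SOR mouse was the highest of its group. The log2 fold changes were -0.47 for *Ntf3*, -0.09 for *Ndufs1*, a subunit of mitochondrial complex I, -0.21 for *Kcns2*, a potassium channel subunit, -0.48 for *Cdc42ep2* and -0.22 for *Tubgcp5*. None of the 5 passed the threshold, and since they were selected for their likeness their differences are a description.

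The rest of the pathway was described with 8 lists of genes. Of 182 genes tested on these lists, each counted once, 3 rose and 0 fell. Of all genes, 0.273% passed as higher and 0.0363% as lower. The lists were chosen with earlier results of these data known. These counts, and the adjusted p of list genes below, are therefore a description and no independent support. The median log2 fold change of the 182 genes was -0.01, with 89 higher and 93 lower. The 3 genes were *Sgk1*, *Tsc22d3* and *Klf15*.

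Among regulators of FoxO proteins, 1 of 26 genes tested rose. This was *Sgk1*, a kinase related to AKT that phosphorylates FOXO3. *Sgk1* had 51.9, 48.1, 54.5 and 63.8 CPM in homecage mice and 153, 151, 118 and 133 CPM in SOR mice. The groups were far apart, with means of 54.6 ± 6.67 and 139 ± 16.5 CPM, a log2 fold change of 1.35 (SE 0.0994) and an adjusted p of 0.000378 (edgeR). *Foxo6*, the FoxO factor enriched in the brain, had a log2 fold change of 0.15 (adjusted p = 0.684, edgeR). *Mdm2*, a ubiquitin ligase of FoxO factors, had 0.22 (adjusted p = 0.25) and *Sgk2* -0.31 (adjusted p = 0.712).

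On the list of the SCF complex and genes tied to *Fbxo32*, 2 of 14 tested rose, and neither encodes an SCF subunit. *Tsc22d3* encodes GILZ, a leucine zipper protein induced by glucocorticoids. It had 40.3, 43.7, 43.1 and 41.9 CPM in the homecage group and 66.8, 60.1, 59.2 and 76.3 CPM in the SOR group, with a log2 fold change of 0.63 (SE 0.0758, adjusted p = 0.00553, edgeR). *Klf15*, a transcription factor that activates *Fbxo32* in muscle, had 15.5, 17.8, 17.5 and 17.2 CPM in homecage mice and 27.6, 23.9, 22.5 and 26.6 CPM after training. Its groups were well separated, with means of 17.0 ± 1.0 and 25.2 ± 2.34 CPM and a log2 fold change of 0.57 (SE 0.0782, adjusted p = 0.0142, edgeR). *Klf15* did not pass without homecage replicate 1, 2 or 4 or SOR replicate 4, where the adjusted p reached 0.0685 (edgeR), and its log2 fold change was 0.52 to 0.62 over the 8 fits with 1 mouse left out.

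The glucocorticoid receptor gene *Nr3c1* was 146 ± 1.49 CPM in homecage mice and 136 ± 4.64 CPM after training, without overlap but not past the threshold (log2 fold change -0.10, adjusted p = 0.365, edgeR). *Fkbp5*, a target of this receptor, named after its values were seen, had a log2 fold change of -0.03 (adjusted p = 0.953). The part of this receptor in any of these differences was not tested. The SCF scaffold *Cul1* had -0.08 (adjusted p = 0.475), and *Fbxo25*, the F-box gene closest to *Fbxo32* in sequence, had 0.01 (adjusted p = 0.988). On the list of the F-box family, which was taken by the start of the gene symbol, left out *Fbxo32* and also took in *Fbxl12os*, named for the strand opposite to *Fbxl12*, none of 59 genes tested passed. Their median log2 fold change was -0.02. *Fbxl4* and *Fbxl12* were among those with the larger values, at -0.31 (adjusted p = 0.127) and 0.35 (adjusted p = 0.36).

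None of 30 FoxO target genes tested on this list passed, and their median log2 fold change was 0.01, with 15 higher and 15 lower. The list left out the 9 genes described above, and so also *Irs2*, *Insr* and *Fbxo32*. *Cdkn1a*, a cell cycle inhibitor, went from 1.68 ± 0.262 to 2.93 ± 0.553 CPM (log2 fold change 0.80, adjusted p = 0.109, edgeR), and *Trib1* from 4.31 ± 0.335 to 6.12 ± 0.863 CPM (0.51, adjusted p = 0.161). *Bcl6*, a transcriptional repressor named after its values were seen, had 42.6 ± 2.77 and 52.1 ± 1.4 CPM (0.29, adjusted p = 0.0572, edgeR). It passed in 8 of 12 alternatives with all mice, but in 0 of the 8 fits with 1 mouse left out. *Trim63*, which encodes MuRF1, the other ubiquitin ligase best known from muscle atrophy, reached at most 0.0885 CPM and was not tested. By contrast, *Fbxo32* had at least 20.7 CPM in every library.

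**Figure D4:**
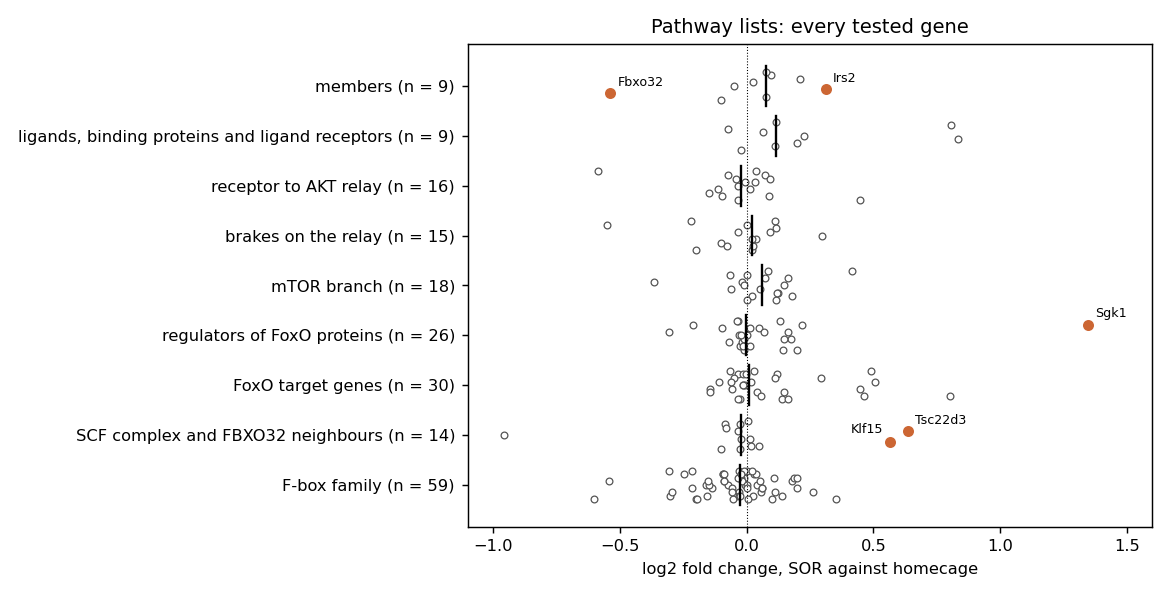
Log2 fold change of SOR against homecage (horizontal axis) for the 9 genes, labelled members, and for every tested gene of the 8 pathway lists, with 1 point per gene and a black line at each median. Filled and named points passed an adjusted p under 0.05 over all genes, which on the lists were *Sgk1* at 1.35, *Tsc22d3* at 0.63 and *Klf15* at 0.57.

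No gene passed among the 9 ligands and binding proteins, the 16 genes of the relay from receptor to AKT, its 15 brakes and the 18 genes of the mTOR branch that were tested. Their median log2 fold changes were 0.11, -0.02, 0.02 and 0.06. *Ins1* and *Ins2* had too few counts to be tested, and *Igf1* was 6.85 ± 1.08 and 6.76 ± 0.83 CPM. The log2 fold changes of the kinases *Akt1* and *Akt2* were -0.10 and 0.04. *Ptpn1*, a phosphatase that acts on the insulin receptor, had 33.3 ± 3.44 and 41.0 ± 2.52 CPM without overlap (0.30, adjusted p = 0.193, edgeR). The receptor-binding adaptor *Grb14* had -0.20 (adjusted p = 0.301) and *Ddit4*, an inhibitor of mTOR, 0.42 (adjusted p = 0.213). *Igf2* had 20.6, 7.16, 12.7 and 21.1 CPM in homecage mice and 53.8, 20.9, 18.8 and 13.5 CPM in SOR mice, and *Igfbp2* was likewise highest in SOR replicate 1, at 73.8 CPM. This library also had the highest sum over 6 choroid plexus markers, 4002 CPM, against 25.2 to 1094 CPM in the other 7, and the part of that tissue in *Igf2* and *Igfbp2* was not tested.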

How the data were processed

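Bulk RNA-seq of dorsal hippocampus from 4 homecage and 4 SOR mice was used; the spatial, single-nucleus and ATAC samples were not analysed here. The authors deposited estimated counts, made per gene with tximport and not normalized, of which 52.6% are not whole numbers. The methods name STAR and featureCounts within bcbio-nextgen, and the labels name mm10; which program fed tximport is not given in the sources used here. Of 54532 genes, 54495 had a record in GENCODE M21.

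Counts were rounded, filtered with filterByExpr, scaled by upper-quartile factors and compared in edgeR 4.0.16 (R 4.3.3). Its quasi-likelihood test was used, with Benjamini-Hochberg adjustment over 22018 genes. The study also accounted for latent variation with RUVs factors before edgeR. The methods do not give their number, so the main fit here used none, and its counts of genes are not those of the study's own fit. The biological coefficient of variation was 14.1%, and mice of a group differed by more than counting error (chi-square per degree of freedom 12 to 53.8). Motifs were counted in RefSeq promoter windows with Python 3.11.15 and pandas 2.3.3.

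The members and lists were chosen with earlier results of these data known. Beside the 9 members, the rule named list genes past the threshold, the 3 with the largest change per list at a mean of at least 1 CPM, a few fixed genes, and the 5 most like *Fbxo32*. The text gives a selection of these, and a few results are not reported here. The alternatives tried were scaling by TMM, RLE or library size, other filters, the likelihood ratio test, DESeq2 1.42.0, limma-voom 3.58.1, RUVs factors, a replicate block, fold-change thresholds of 1.4 and each mouse left out.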

Additional observations from a re-analysis of the deposited data

Results flagged for a closer look

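The homecage value of *Foxo4* in replicate 1, 11.0 CPM, lay apart from the other 3 homecage mice, which were between 12.3 and 12.5 CPM. Its gap to the nearest of them was 0.835 of the range of the group, above Dixon's critical value at the 95% level. In all, 24 groups of 4 samples were examined in this way, and chance alone marks about 1 in 20 groups.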

How the results depend on the processing

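Of all genes, 68 passed the threshold. The count was 214 with the likelihood ratio test, 435 with DESeq2, 297, 498 and 505 with 1, 2 and 3 RUVs factors, 38 with a fold change above 1.4 required, 8 when tested against a 1.4-fold change, and 30 to 55 with each mouse left out in turn. Of the 9 genes, 2 passed; 1, *Fbxo32*, with the fold change required, 0 in the test against that fold change, and 1 to 2 with a mouse left out. Of the list genes, 3 passed; 6 with the likelihood ratio test, 15 with DESeq2, 10, 13 and 12 with the RUVs factors, 1 (*Sgk1*) in the test against a fold change, and 2 to 4 with a mouse left out. *Foxo3* passed with DESeq2 (log2 fold change 0.23) and with 2 or 3 RUVs factors (both 0.20). The log2 fold change of *Irs1* was -0.0004 to 0.0805 with each mouse left out, and its sign turned only without SOR replicate 3 (-0.0004). The other 8 genes kept their direction in the 12 alternatives with all mice and with each mouse left out. The median level of the 9 genes was 4.12 CPM per kilobase, 5.69 with the longest transcript, and 4.01 to 4.21 with a homecage mouse left out. With the replicate number as a block, 40 of all genes and 1 of the 9, *Fbxo32*, passed, and *Irs2* had 0.31; of the list genes 2 passed, without *Klf15* (adjusted p = 0.095, edgeR). Deviations of same-numbered mice correlated at -0.0837 to 0.073, and those of mice with different numbers at -0.2 to 0.194. With 4 same-numbered pairs, these values cannot decide whether the numbers pair the mice. Scaling moved the median of all genes from -0.02 to at most 0.0019. The causes of these differences were not tested. With 4 mice per group, a difference that did not pass is not shown to be absent.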
